A study of Mus musculus with 4 samples.

Results

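Ecrg4, the gene of a small secreted peptide precursor, is 1 of 19324 genes named on the arrays and was read by 3 of their 45037 probe sets. They were found by the symbol in the annotation of the probes, and all 3 carry Ecrg4 alone. The gene was chosen by its measured values, as its level was higher in Cyc than in Wt cells on these same arrays, so its Cyc and Wt values are described here with no test. The arrays were Affymetrix Mouse 430 2.0 arrays, and each held the RNA of 1 pool of Sca-1 cells taken from the hearts of 2 to 3 mice. There were 2 Cyc pools and 2 Wt pools, all from FVB mice aged 6 weeks, and the number of arrays limits the precision. Cyc mice overexpress CyclinT1 and Gαq from transgenes under the αMHC promoter, which is active in cardiomyocytes, and have heart failure, whereas Wt mice are their healthy wildtype littermates. Sca-1 cells were isolated by magnetic cell sorting and their RNA was extracted fresh. Progenitor cells of the heart are commonly enriched through Sca-1, an antigen on their surface, whose own gene was not analysed here. Of 9 endothelial markers and 10 fibroblast markers, all were read at an intensity of 50 or more in every pool, so both kinds of RNA were present in all of them.

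Ecrg4 (esophageal cancer related gene 4, also augurin) encodes a precursor that enters the secretory pathway, can stay tethered at the cell surface and is cut into smaller peptides. Proteases of the furin family and thrombin have been linked to its cleavage, and scavenger receptors and the Toll-like receptor 4 complex to the binding of its products. The gene is best known from epithelia such as the choroid plexus, from cartilage and from the heart. Its loss in tumours and its rise in cells that stop dividing have made it a candidate growth suppressor. These statements are background and not results of the arrays.

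As all values turn on 1 transcription unit, the bases before its start are shown. They are taken from RefSeq on the build GRCm38.p6, chr1:43730352-43730601, on the plus strand, 250 bases up to the start of the gene. Capitals mark the only match to the motifs searched.
Ecrg4: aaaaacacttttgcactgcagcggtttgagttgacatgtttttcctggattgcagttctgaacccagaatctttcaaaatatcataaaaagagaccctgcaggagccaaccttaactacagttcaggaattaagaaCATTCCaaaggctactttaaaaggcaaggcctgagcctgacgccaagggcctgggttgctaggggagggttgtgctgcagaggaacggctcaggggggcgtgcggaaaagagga
Searched on both strands were the TATA box TATAAA, the CCAAT box CCAAT, the GC box GGGCGG, the E-box CACGTG, the AP-1 motif TGANTCA and the TEAD motif CATTCC. Only CATTCC, the core of the sites bound by TEAD factors, was found, with its first base 114 bases before the start. It is present in 12.6% of 32851 windows of this length. The window holds 5 CG dinucleotides, against a median of 6 over all windows, and its GC content is 48.4%, against a median of 52.4%. These matches describe letters only, and the arrays say nothing of binding there.

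At 1460049_s_at, Ecrg4 had an intensity of 675.6 and 1100.5 in the Cyc pools of replicates 1 and 2, and of 57.0 and 31.9 in the Wt pools of replicates 1 and 2. In bulk samples fewer cells of a type and less RNA per cell cannot be told apart. Both Cyc pools lay far above both Wt pools, and the lower Cyc pool was still 11.86 times the higher Wt pool. At 1423261_at the Cyc pools were read at 434.0 and 717.5, and the Wt pools at 59.0 and 40.0. The groups did not overlap there either, with the lower Cyc pool at 7.35 times the higher Wt pool. The Cyc pools reached 243.1 and 258.9 at 1440780_x_at, against 65.4 and 44.7 for the Wt pools. This was the narrowest gap, 3.72 times. In all 3 probe sets the brighter Cyc pool was that of replicate 2 and the brighter Wt pool that of replicate 1. Readings below 50 were counted as close to background. The Wt pool of replicate 2 was below this value in all 3 probe sets, while that of replicate 1 lay just above it.

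**Figure D1:**
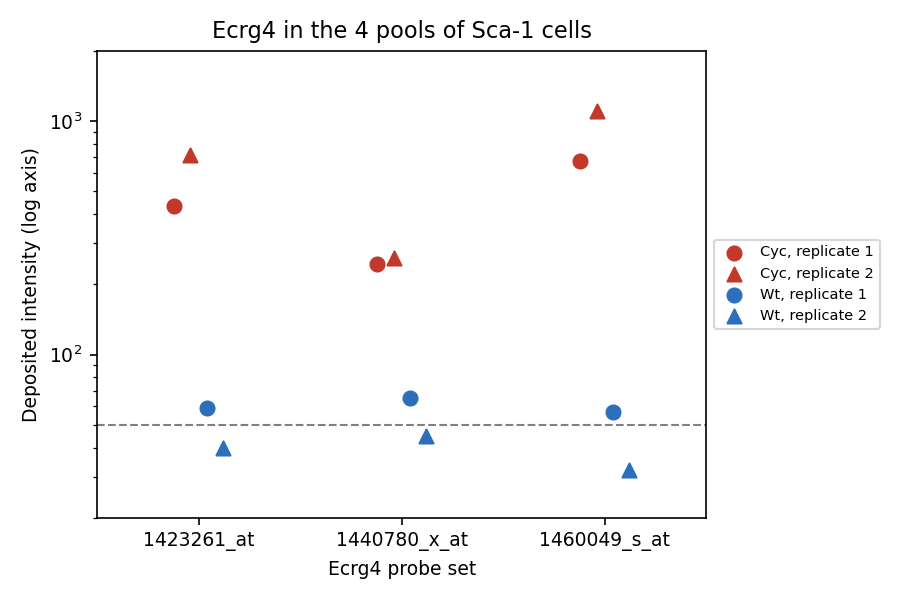
Deposited intensity (log axis) of the 3 Ecrg4 probe sets in each pool, with Cyc pools in red, Wt pools in blue, circles for replicate 1 and triangles for replicate 2. All Cyc points lie at 243.1 or above and all Wt points at 65.4 or below, and the Wt points of replicate 2 are under the dashed line at 50.

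The 3 probe sets are not independent readings of the gene. 1440780_x_at and 1460049_s_at were designed on the same target sequence, and 1423261_at on another. In the naming of these arrays the suffix _x marks a set in which some probes match other sequences as well, and _s one whose probes match several transcripts, while a plain _at stands for probes specific to the target. The plain set and the _s set gave the wider differences and the _x set the narrowest. Levels of different probe sets are not compared, as each has its own brightness.

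The group means were 888 ± 300.4 in Cyc and 44.4 ± 17.75 in Wt cells at 1460049_s_at (SD, n = 2 pools each), 576 ± 200.5 and 49.5 ± 13.5 at 1423261_at, and 251 ± 11.2 and 55.1 ± 14.6 at 1440780_x_at. Differences were computed on a log2 scale after an offset of 16, with negative intensities first raised to 0. On this scale the Cyc minus Wt difference of Ecrg4 was 3.89 (standard error 0.37) at 1460049_s_at, 3.15 (0.35) at 1423261_at and 1.92 (0.26) at 1440780_x_at. The 16 added narrows the differences of dim genes, and as Ecrg4 is dim in Wt cells its size depends on this value. The plain ratios of Cyc over Wt intensity at 1460049_s_at were 11.86 in replicate 1 and 34.5 in replicate 2. They were 7.35 and 17.95 at 1423261_at and 3.72 and 5.79 at 1440780_x_at. In each probe set the ratio was wider in replicate 2, where Ecrg4 was both brighter in Cyc and dimmer in Wt cells.

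Poly-A controls, which are added before labelling, were bright on both arrays of replicate 1, with medians of 258.8 (Cyc) and 231.9 (Wt), and near 0 on both of replicate 2, with medians of -0.9 (Cyc) and 0.3 (Wt). The arrays of a replicate number thus share this technical feature, and values within each number are given for that reason. On the log2 scale Ecrg4 differed between Cyc and Wt by 3.24 in replicate 1 and 4.54 in replicate 2 at 1460049_s_at. The differences were 2.58 and 3.71 at 1423261_at, and 1.67 and 2.18 at 1440780_x_at. The Cyc pool was brighter within each replicate number in all 3 probe sets.

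Among all measured genes the differences of Ecrg4 were near the top. A probe set was tested where 2 or more arrays reached 50, which left 20680, and in their order by log2 difference the Ecrg4 probe sets came at places 2, 5 and 27 from the top. All 3 Ecrg4 probe sets passed this filter. With limma, 152 probe sets (0.735%) were at least 2-fold higher in Cyc cells at an unadjusted p under 0.05, the thresholds of the study, and 24 (0.116%) were lower. The 3 Ecrg4 probe sets are among the 152, which follows from how the gene was picked. After Benjamini-Hochberg adjustment limma left 0 probe sets under 0.05 (smallest adjusted p = 1), against 412 before adjustment. Calls named below therefore fail the correction for multiple tests. The Cyc pools did not overlap the Wt pools and were higher in 3114 probe sets (15.1%), so this feature of Ecrg4 is common on the arrays. The gap between the lower Cyc pool and the higher Wt pool was not ranked over the array.

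**Figure D2:**
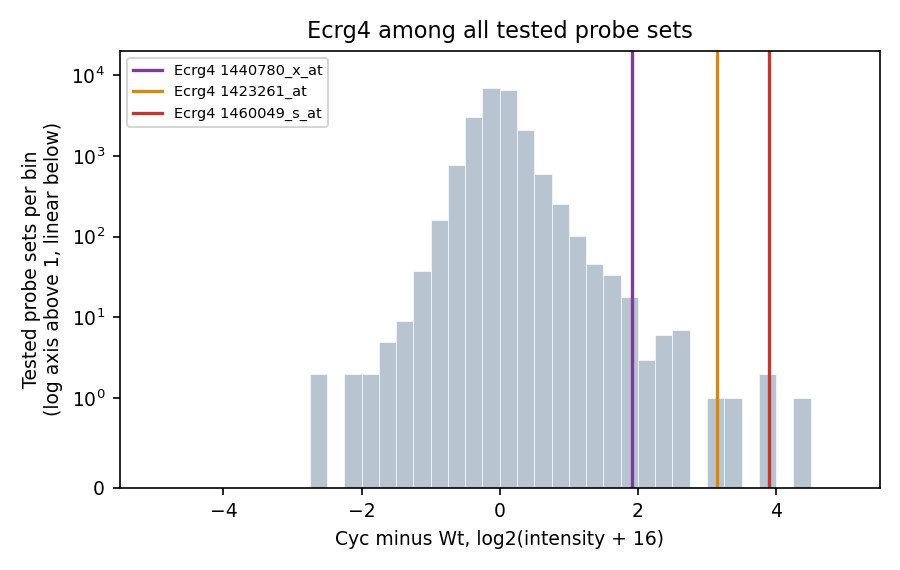
Number of tested probe sets by Cyc minus Wt difference in log2(intensity + 16), in bins of 0.25, with vertical lines at the 3 Ecrg4 probe sets. The lines stand at 1.92, 3.15 and 3.89, beyond the bulk of the 20680 probe sets around 0.

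The place of Ecrg4 within each array moved with the genotype. On the Cyc arrays, 1460049_s_at lay at percentiles 90.4 and 92.5 of all probe sets, and on the Wt arrays at 58.7 and 49.0. For 1423261_at these percentiles were 86.3 and 88.6 against 59.2 and 52.1, and for 1440780_x_at 79.6 and 76.0 against 60.6 and 53.6. In Wt cells Ecrg4 was thus read near the middle of each array, which is itself close to background. Of the 45037 probe sets, 19442 and 20200 reached 50 on the Wt arrays of replicates 1 and 2.

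Pools of the same genotype also differed. At 1460049_s_at and 1423261_at the Cyc pool of replicate 2 had 1.63 and 1.65 times the intensity of the Cyc pool of replicate 1, and at 1440780_x_at 1.07 times. On the log2 scale these differences were 0.69, 0.70 and 0.09, and the median over all tested probe sets was 0.38 (10th to 90th percentile -0.22 to 1.22). The Cyc array of replicate 2 was brighter at the median, with an intensity of 280.5 against 197.6, though not for every probe set. The spread of Ecrg4 between the Cyc pools lies within that of other probe sets. Between the Wt pools Ecrg4 was higher in replicate 1 by 0.61, 0.42 and 0.42 on the log2 scale at 1460049_s_at, 1423261_at and 1440780_x_at. The median over the array ran the other way, at -0.19 (10th to 90th percentile -0.75 to 0.33), so the dim Wt values of Ecrg4 moved against the brightness of their arrays.

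The agreement among its probe sets set Ecrg4 beside other genes with several. Of 1134 genes with exactly 3 tested probe sets, 9 had at least 1 that was higher past the thresholds, and Ecrg4 was the only gene with all 3. Among the 1873 genes with 3 or more, 16 had at least 1, and Ecrg4 was again the only one with all of them. Among the 4573 genes with 2 or more, 44 had at least 1 and 10 had all of theirs. Fmod, a collagen-binding proteoglycan, had 3 of 5 and Marcksl1, an actin regulator, 3 of 4, both with every probe set higher in both Cyc pools. The size of the Ecrg4 difference varied more among its probe sets than in most of these 9 genes, with a range of 1.97 on the log2 scale against a median of 0.82. It was the widest of the 9. These counts use the contrast for which Ecrg4 was picked and are given as a description.

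Genes whose profile over the 4 pools was nearest to that of Ecrg4 were sought with each log2 profile centred on its mean. The measure was the root mean square distance to 1460049_s_at over 4 pools, across 10314 genes. The other Ecrg4 probe sets stood at 0.38 (1423261_at) and 1.01 (1440780_x_at), and the median gene at 1.95. The nearest gene was Gnaq, the gene of Gαq and thus of a transgene, at 0.53, by 1 of its 7 tested probe sets. Fam167b followed at 0.65, and then Sfrp2, a secreted modulator of Wnt signaling (0.66), Comp, a cartilage matrix protein (0.73), Col8a2, a network-forming collagen (0.75), Adamtsl2, a secreted glycoprotein (0.79), Itgbl1, an integrin-like secreted protein (0.82), Ltbp2, a protein of elastic fibres (0.84), Fmod (0.89) and Mfap4, a microfibril-associated protein (0.92). With only 4 pools many profiles look alike, and 381 of the 10314 genes had a Pearson correlation over 0.95 with Ecrg4.

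Within this group Ecrg4 shared the pattern between replicates with some genes and not with others. Like Ecrg4, Sfrp2 was read higher in the Cyc pool of replicate 2, at 830.9 against 289.8, with 73.9 and 52.7 in the Wt pools of replicates 1 and 2. For Itgbl1 the Cyc pools were read at 796.4 and 1227 and the Wt pools at 234.2 and 160.1, in the same order of pools as Ecrg4. Comp, at 387.9 and 495.3 in Cyc and 58.0 and 65.4 in Wt cells, and Mfap4, at 279.1 and 375.0 against 55.4 and 65.4, had nearly the same difference in both replicates. Gnaq had the reverse order of Cyc pools, at 723.6 and 492.3, with 22.7 and 4.1 in Wt cells, which is at least 11.9-fold higher as both Wt pools lay below 50. This holds for 1 probe set of Gnaq, as none of its other 6 tested passed the thresholds or had both Cyc pools above both Wt pools, and the lowest difference among the 7 was -0.47. By the same reckoning the bound was 4.34-fold for Col8a2 and 1.73-fold for Fam167b.

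**Figure D3:**
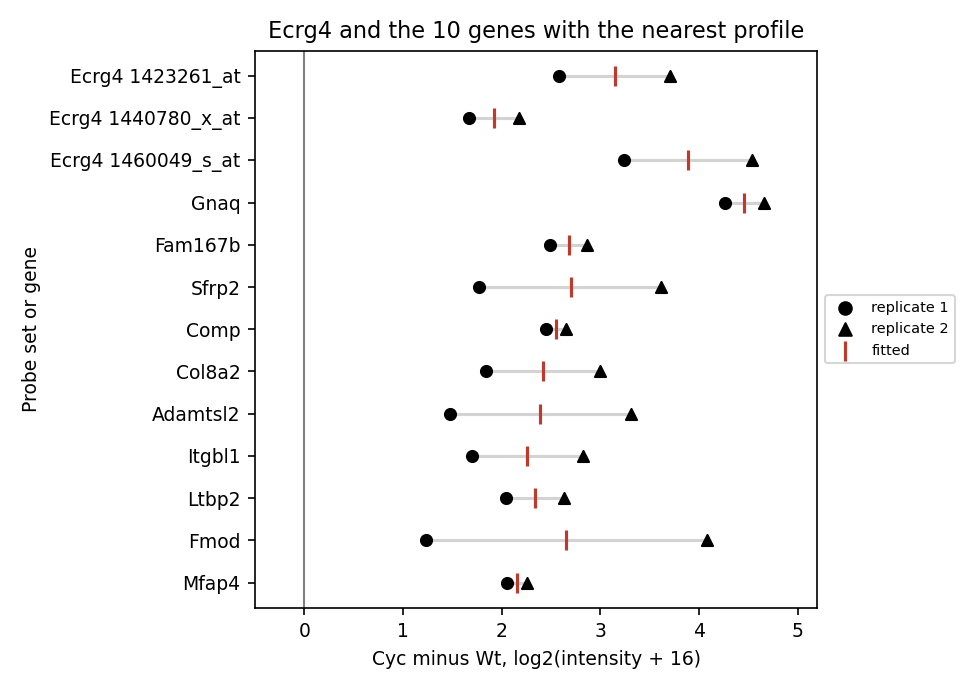
Cyc minus Wt difference in log2(intensity + 16) for the 3 Ecrg4 probe sets and the 10 nearest genes, with a circle for replicate 1, a triangle for replicate 2 and a red bar for the fitted value. As Ecrg4 was chosen for its rise and the genes for their likeness to it, every point lies above 0. Ecrg4 at 1460049_s_at runs from 3.24 to 4.54.

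None of the tested proteases and binding partners linked to the Ecrg4 peptide passed the thresholds. Of 7 proteases listed, 6 are named on the array and 4 were tested, of which none passed the thresholds in either direction (background 0.735% higher and 0.116% lower). Furin, the prototype convertase, was read at 716.2 and 999.2 in Cyc and 754.1 and 979.6 in Wt cells, a log2 difference of -0.02 (standard error 0.29, limma adjusted p = 1). Pcsk5, a convertase of the secretory pathway, differed by 0.20 (0.38), Pcsk6 by -0.20 (0.27) and Pcsk7 by 0.07 (0.24). Thrombin (F2) and Pcsk1, a convertase of endocrine cells, lay below 50 in all pools. The median of the tested members was 0.02, beside -0.02 for all tested probe sets, whereas Ecrg4 differed by 1.92 to 3.89.

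Of 6 proposed surface partners 5 were tested and none passed. Cd36, a scavenger receptor and fatty acid carrier, was read at 10207.5 and 10442.9 in the Cyc pools and 12722.6 and 13489.7 in the Wt pools, which gave a log2 difference of -0.34 (standard error 0.22). Scarf1, an endothelial scavenger receptor, was read at 428.6 and 468.4 in Cyc and 486.4 and 438.2 in Wt cells, and Tlr4 at 200.9 and 287.2 against 214.9 and 269.6. Ly96, the partner of Tlr4 at the surface, differed by 0.23 (0.24). Cd14, its co-receptor, had a difference of 0.87 (0.47), with -0.01 in replicate 1 and 1.76 in replicate 2, and passed the thresholds without the Cyc pool or the Wt pool of replicate 1. Olr1, the scavenger receptor LOX-1, lay below 50 in every pool, at 10.6 or less. Cd36, Scarf1, Tlr4 and Ly96 were thus read above 50 in all 4 pools, and whether in the cells that express Ecrg4 cannot be told from pooled RNA.

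**Figure D4:**
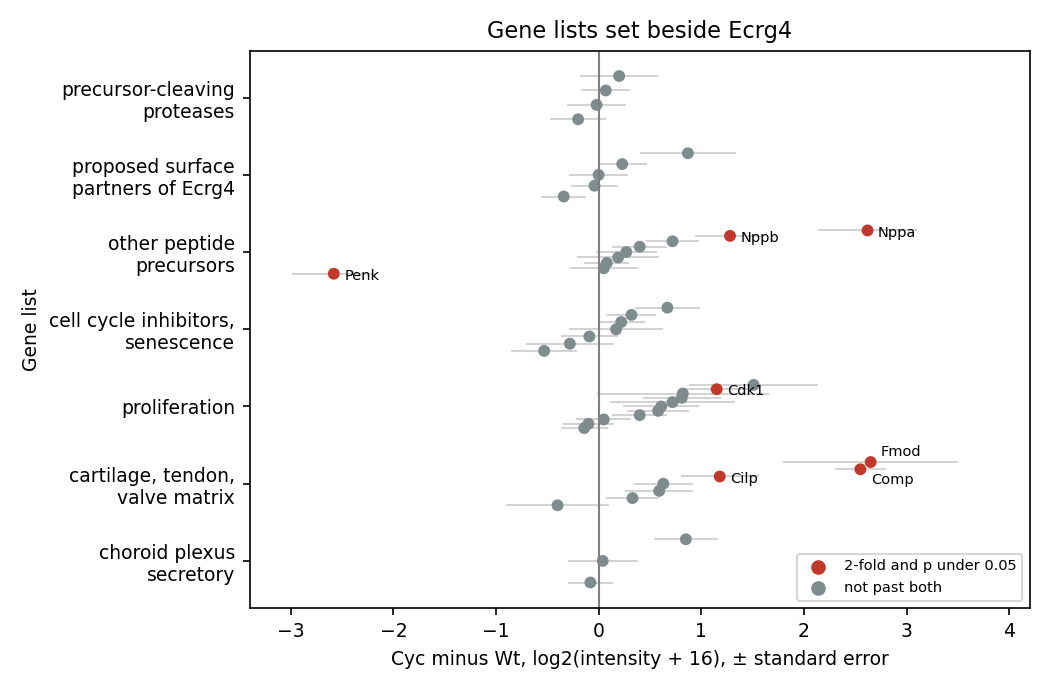
Cyc minus Wt difference in log2(intensity + 16) with its standard error for each tested gene of 7 lists, in red where at least 2-fold with an unadjusted p under 0.05. The named genes are the 7 past both thresholds, none of them a protease or a proposed partner of Ecrg4.

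Ecrg4 was also set beside other genes of peptide hormones and granule proteins. Of 26 such genes named on the array, 16 lay below 50 in all pools, among them Chga, Chgb and Scg2 of secretory granules, and 9 were tested, of which 2 were higher and 1 lower past the thresholds (0.735% and 0.116% over all tested probe sets). The natriuretic peptide gene Nppa rose from 146 ± 36.8 to 1055 ± 604 (mean ± SD of 2 pools, log2 difference 2.62, standard error 0.48), and its relative Nppb was at least 1.44-fold higher. Penk, the precursor of the enkephalins, fell by 2.58 on the log2 scale (0.41), from 376 ± 23.1 to 53.8 ± 34.5. The other 6 did not pass, among them Adm, the gene of the vasodilator adrenomedullin, at 0.72 (0.26) and Nts, that of neurotensin, at 0.40 (0.27). Ecrg4 and Nppa ran in opposite order between the Cyc pools, as Nppa was brighter in replicate 1, at 1481.9 against 627.7, and Ecrg4 in replicate 2. Without the Cyc pool or the Wt pool of replicate 1 Nppb did not pass. The counts of these lists rest on thresholds that fail correction over all probe sets. Nppb reached 50 only in the Cyc pools, so its place among the 9 tested rests on its level there. The study reported Nppa as higher in Cyc cells and has Penk among the genes of its altered processes. As the lists were chosen with earlier results of these arrays known, these counts are not independent evidence.

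Ecrg4 is known from cells that stop dividing, and genes of the cell cycle were read beside it. Of 7 tested inhibitors and senescence genes none passed, with a median of 0.17. Cdkn1a, the gene of p21, was read at 3462.9 and 1669.0 in the Cyc pools and 2662.4 and 1716.9 in the Wt pools, and Cdkn1c, that of p57, differed by -0.53 (standard error 0.32). Cdkn2a lay below 50 in all pools. Of 11 tested proliferation genes Cdk1, a kinase that drives mitosis, rose by 1.15 on the log2 scale (0.35, limma adjusted p = 1). It was read at 161.6 and 291.8 in Wt and 538.6 and 471.3 in Cyc cells. The other 10 did not pass. Among them only Pcna and Ccnd1 were lower in Cyc cells, at -0.10 (0.25) and -0.14 (0.23). The rest ran from 0.05 (Ccne1) to 1.51 (Birc5). For 6 of the 11 the genotypes did not overlap and Cyc cells were higher, and for 1 they were lower. Over all tested probe sets 15.1% were higher without overlap. The median of the 11 genes was 0.61, with 0.93 in replicate 1 and 0.27 in replicate 2, the reverse of the order of Ecrg4. Without the Wt pool of replicate 1 Cdk1 did not pass, and without that of replicate 2 Cdk1, Ccnb2, Mki67, Top2a and Birc5 did.

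Ecrg4 is also expressed in cartilage, and 3 of 7 tested genes of cartilage, tendon and valve matrix were past the thresholds, where 0.735% of all tested probe sets were higher and 0.116% lower. Comp rose by 2.55 (standard error 0.25), Fmod by 2.65 (0.85) and Cilp, a cartilage protein also found in heart, by 1.18 (0.38). In replicates 1 and 2 the differences were 0.50 and 1.85 for Cilp and 1.23 and 4.08 for Fmod, wider in replicate 2 as for Ecrg4, and 2.45 and 2.65 for Comp, which were close. Cilp did not pass without the Cyc pool of replicate 2 or the Wt pool of replicate 2, nor Fmod without the latter. Ogn, a proteoglycan, and Matn2 had differences of 0.59 (0.33) and 0.33 (0.26), and the median of the 7 was 0.63. Acan, Col2a1, Tnmd and Scx, defining genes of cartilage and tendon, lay below 50 in all pools and were not tested. Thbs4 and Chrdl1 reached 50 only in the Cyc pool of replicate 2, at 52.3 and 101.0, and were not tested either. Of the 7 tested, 6 had both Cyc pools above both Wt pools and 0 below, against 15.1% above over all tested probe sets. Sox9, a regulator of cartilage and valve cells, was read at 95.2 and 149.0 in Cyc and 76.9 and 66.4 in Wt cells (0.63, standard error 0.29). Earlier results of these arrays were known when Comp, Fmod and Cilp were listed, so their counts are not independent evidence. Of 8 named genes of the choroid plexus, the tissue best known for Ecrg4, 5 lay below 50 in all pools, among them Ttr and Kl. The 3 tested did not pass. Clu, a secreted chaperone, differed by 0.85 (0.31), Igf2 by 0.04 (0.34) and the water channel Aqp1 by -0.08 (0.22). For Clu the difference was 1.17 without the Cyc pool of replicate 1 and 0.52 without that of replicate 2.

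The genes next to Ecrg4 on chromosome 1 were looked at in the order of RefSeq (GRCm38.p6). Nck2 on one side had a log2 difference of 0.09 (standard error 0.27) and Uxs1 on the other of 0.17 (0.24). Tpp2, beyond Uxs1, differed by -0.03 (0.31), and Fhl2 and AI597479, beyond Nck2, by 0.90 (0.43) and -0.04 (0.32). No probe set of these 5 genes passed the thresholds, and Mettl21c was not read.

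Markers of other cell types that the sort could hold were read beside Ecrg4. Genes of airway and alveolar epithelium had median differences of -1.84 in replicate 1 and 4.67 in replicate 2 over 6 tested genes, and those of epicardium and mesothelium -1.48 and 2.81 over 8. Scgb1a1, a secretoglobin of airway cells, was read at 118.5 and 10195 in the Cyc pools and at 1784 and 3.2 in the Wt pools. The summed intensity of the 10 airway markers was 459.9 and 18420 in Cyc and 3268 and 225.8 in Wt cells, with 2 markers below 50 in all pools. In replicate 1 the airway genes did not move as one. Scgb1a1, Scgb3a2 and Cyp2f2 differed by -3.74, -3.75 and -3.76, and Sftpb, Sftpd and Epcam by 0.14, 0.06 and 0.12. Of the tested mesothelial genes all but Wt1 (0.12) were lower in Cyc cells there. Ecrg4 was higher in Cyc cells of replicate 1 by 1.67 to 3.24 on the log2 scale. In replicate 2 the medians of epithelial and mesothelial markers were higher in Cyc cells along with Ecrg4. So were that of macrophage markers, at 2.34 over 3 tested genes, and the only tested B cell marker, Ighm, at 2.84. The part of these markers in the wider Ecrg4 difference there was not tested.

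Fibroblast markers had medians of 0.03 and 0.67 in replicates 1 and 2 over 10 genes, and their summed intensity was 53102 and 50052 in Cyc and 55925 and 37230 in Wt cells. At the brightest probe set of each gene only Col1a1, of fibrillar collagen, was past the thresholds, at 1.16 (standard error 0.40). Its difference ran from 0.68 to 1.64 without each array in turn. Mfap5 stood at 0.86 (0.36) and passed at 1 other probe set. Tcf21, Pi16, Col3a1 and Lum differed by 0.64, 0.48, 0.44 and 0.35. Dcn, Dpt, Gsn and Pdgfra differed by -0.01 (0.29), -0.05, -0.11 and -0.23 (0.29). For 5 of these 10 genes the genotypes did not overlap and Cyc cells were higher, and for 0 they were lower. Over all tested probe sets 15.1% were higher without overlap. Endothelial markers had medians of -0.27 and -0.10, with none of 9 past the thresholds. The medians of smooth muscle and pericyte markers were 0.20 and 0.79, with none of 7. Cardiomyocyte markers had medians of -1.18 and -0.51, and of 9 tested Myl2 and Mb were lower past the thresholds and none was higher. Their differences were -1.15 and -1.11, and ran from -1.45 to -0.86 and from -1.63 to -0.59 without each array in turn. Myl3, at -0.96 (0.33), passed at 1 other probe set, while Myh6 and Ttn differed by 0.0 (0.66) and -0.02 (0.73). The Ecrg4 probe sets had medians of 2.58 and 3.71, and the highest median of a marker list in replicate 1 was 0.85, of 2 genes of T and NK cells. Of these, Gzma reached 50 only in the Cyc pools, at 103.4 and 175.5 against 42.0 and 39.1, and so was tested only through them. The other, Cd3g, was dim, at 46.4 and 59.0 in Cyc and 23.8 and 67.0 in Wt cells. Whether the fibroblast, mural or other markers have a part in the level of Ecrg4 was not tested. Of markers of T and NK cells Gzma, a protease of cytotoxic granules, was at least 2.69-fold higher, and Cnp, the tested one of Schwann cells, differed by 0.32 (0.24).

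**Figure D5:**
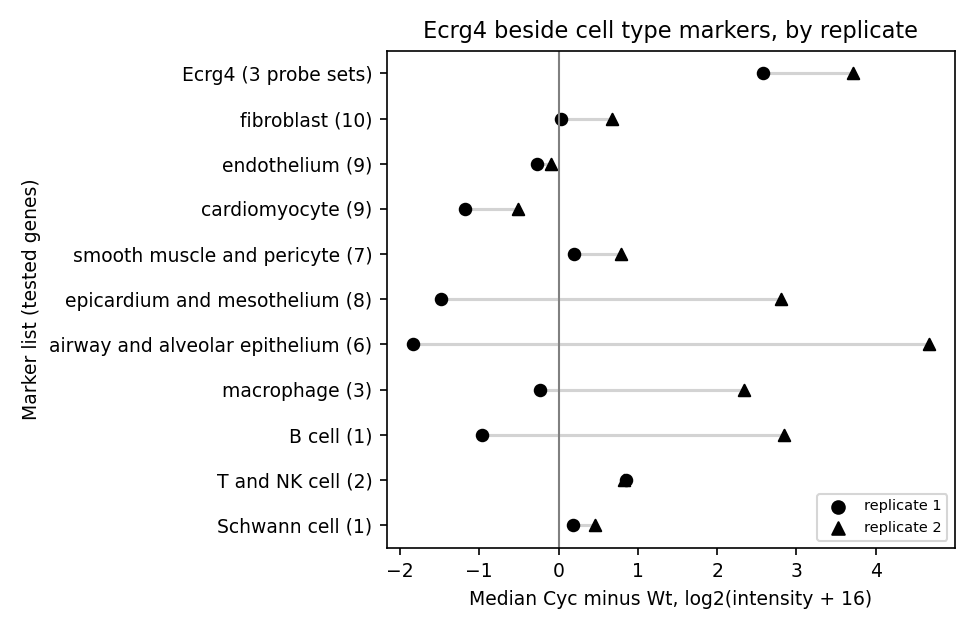
Median Cyc minus Wt difference in log2(intensity + 16) of Ecrg4 and of each marker list, with the number of tested genes in parentheses, circles for replicate 1 and triangles for replicate 2. Ecrg4 lies at 2.58 and 3.71, while the airway list runs from -1.84 to 4.67.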

How the data were processed

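The deposited values are probe set intensities on a linear scale, 1 Affymetrix Mouse 430 2.0 array per pool, which the authors normalized in Resolver 7.2. The background correction and the summary method are not given in the sources used here. The values fall below 0 where background exceeded signal, and 64 control probe sets were set aside. Negative intensities were raised to 0 and log2(intensity + 16) was analysed. Probe sets that reached 50 on 2 or more arrays (20680) were fitted with limma 3.58.1 in R 4.3.3, without the replicate number as a term. The fit had 2 residual and 2.68 prior degrees of freedom. Tests were two-sided with Benjamini-Hochberg adjustment, and a call needed the study's 2-fold and an unadjusted p under 0.05. The study's Resolver error model was not run. If a group had no array at 50 or above, the bound is the geometric mean of the brighter group over 50.

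Of the 45037 probe sets, 34945 have 1 symbol in the annotation, 932 several and 9160 none. In lists a gene stands at its brightest tested probe set. The lists comprise 7 around Ecrg4 and 10 of cell type markers with measured members. Named are all Ecrg4 probe sets, the 10 nearest genes, and of the lists mainly the 2 brightest genes and those called, with further members for context that were chosen after their values were seen. The gene and the lists were chosen with earlier results of these arrays known. The procedure was tested on simulated data. Pools are separate isolations, so p-values cover the variation among the 4 pools and no more. Alternatives were other pseudocounts, filters and scalings, the replicate number as a block and an intensity trend for the prior. An ordinary t-test, which was not the study's test for its arrays, and leaving out each array were tried as well. Some genes of the lists, the gene of Sca-1 among them, are not reported here.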

Additional observations from a re-analysis of the deposited data

How the results depend on the processing

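In every setting tried Ecrg4 was higher in Cyc cells at all 3 probe sets. The log2 difference moved beyond the spread of replicates with the value added before log2. With 50 added it was 3.29, 2.62 and 1.52 at 1460049_s_at, 1423261_at and 1440780_x_at, and with 1 added it was 2.19 at 1440780_x_at. The other settings for Ecrg4 stayed within that spread, and without each array in turn it ran from 3.55 to 4.24, 2.80 to 3.50 and 1.71 to 2.14. A fit without 1 array leaves a group with 1 pool, which is assumed to vary like the other group.

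Of the 10 nearest genes, 7 were the same with 50 added and 10 with quantile normalization. Probe sets called higher numbered 152, but 93 with 50 added, 47 with the methods' t-test and 581 without the Cyc pool of replicate 1, the lowest number on leaving out an array being 117. Those called lower numbered 24, but 46 with 1 added, 37 without a filter, 7 with the methods' t-test 60 without the Cyc pool of replicate 1 and 1050 without the Cyc pool of replicate 2, the lowest on leaving out an array being 29. Over the 46 tested genes of the lists around Ecrg4, 6 were higher and 1 lower, but 3 were higher without a filter and 1 with the methods' t-test (Comp), and leaving out each array gave 5 to 8 higher and 1 to 2 lower. Comp and Penk kept their call under all 13 alternatives, and Nppa under 12. The cause of these shifts was not tested.

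With the replicate number as a block, 191 probe sets were higher and 47 lower. The standard error of Ecrg4 was then 0.34, 0.31 and 0.22, its differences being the same by construction, and in the lists around Ecrg4 Birc5 was added to the calls. Arrays of 1 number departed from their group means together, with r = 0.447 over 20680 probe sets, but with 2 pairs the numbers are not shown to pair the pools. With 2 pools per genotype and the Wt pool of replicate 2 below 50 for Ecrg4, the size of its difference is not well fixed.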
